A study of Mus musculus with 4 samples.

Results

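The genes examined here were 10 heat shock genes, given by symbol and found in the count table by their mouse Ensembl IDs. All 10 were among the 47729 gene rows, and all 10 passed the filter on low counts that left 13732 genes to test. They encode the regulator HSF1, the cytosolic HSP70 proteins (Hspa8, Hspa1a and Hspa1b) with their partners Dnajb1 and Hsph1, the cytosolic HSP90 pair (Hsp90aa1 and Hsp90ab1), and the mitochondrial chaperonin (Hspd1 and Hspe1). The cells were CD4 T cells from the spleen of C57BL/6 mice, cultured as induced regulatory T (iTreg) cells. The methods describe such cultures as starting from naïve CD4 T cells stimulated with antibodies to CD3 and CD28. The medium also held TGF-β at 5 ng/mL, IL-2 at 100 U/mL and blocking antibodies to IL-4 and IFN-γ at 5 µg/mL each. Both groups shared that medium, and they differed in what was added for 4 days, ferrous sulfate (FeSO4, 50 µM) or PBS (Mock). Each group had 2 libraries, numbered replicates 1 and 2, which the methods describe as pairs from separate experiments. These are whole cultures, so more RNA per cell and more cells that express a gene cannot be told apart.

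Heat shock proteins are chaperones, which bind unfolded proteins and help them to fold, assemble or be degraded. HSF1 is the main activator of the heat shock response. It is held inactive by chaperones in unstressed cells, and on proteotoxic stress it forms trimers that bind heat shock elements, arrays of inverted GAA units in the promoters of chaperone genes. HSP70 proteins work in cycles of ATP hydrolysis, which J-domain proteins such as DNAJB1 start and nucleotide exchange factors such as HSPH1 (HSP110) reset. HSP90 acts later, on nearly folded clients such as kinases and steroid receptors. HSPD1 (HSP60) and HSPE1 (HSP10) form the folding chamber of the mitochondrial matrix. Hspa8 and Hsp90ab1 are the constitutive forms that growing cells use at all times, while Hspa1a and Hspa1b are the classical stress-induced forms, usually the most strongly heat-induced HSP70 genes of a cell. Ferrous iron can generate oxidants that damage proteins.

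Promoter sequences from RefSeq (GRCm38.p6, 250 bases before to 50 after a start site) were held for 6 of the 10 genes. No sequence was printed for Hsf1, Hspa8, Hsp90aa1 and Hsp90ab1. The windows were searched for alternating GAA and TTC units with 2 bases between them (GAANNTTC or TTCNNGAA for 2 units), a pattern that reads the same on both strands, with longer runs counted once. The runs are shown in capitals within 30 bases, 5′ to 3′ on the strand of the gene, because they match the letters of the known element of HSF1.
Hspe1, chr1:55088053-55088082, plus strand: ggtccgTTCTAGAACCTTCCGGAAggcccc
Hspd1, chr1:55088053-55088082, minus strand: ggggccTTCCGGAAGGTTCTAGAAcggacc
Hsph1, chr5:149636287-149636316, minus strand: agtaaaatgctgcagaTTCTGGAAAGTTCt
Hspa1a, chr17:34972242-34972271, minus strand: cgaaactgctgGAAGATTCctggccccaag
Hspa1b, chr17:34959324-34959353, minus strand: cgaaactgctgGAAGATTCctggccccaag

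The first pair of lines is the same stretch of DNA read on both strands. Hspd1 and Hspe1 lie head to head on chromosome 1, and a run of 4 units sits between their start sites, 89 bases before that of Hspe1 and 144 bases before 1 start site of Hspd1 (chr1:55087932). Hspd1 has another start site in the table (chr1:55088243), and the window of that site held no run. Of 32851 promoter windows in the table, 15.1% held at least 2 units, 0.603% at least 3 and 0.0244% (8 windows) 4. Hsph1 had a run of 3 units that began 37 bases after its upstream start site, and a separate run of 2 units. Hspa1a and Hspa1b had the same 2 units 104 bases before the start site, and their 300-base windows were identical at 296 positions. The 2 windows of Dnajb1 did not hold these letters. These matches describe sequence and were not tested as binding sites.

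The libraries were deep and alike in size. The gene rows held 35183187 to 40859178 reads in a library. CPM below is the count scaled by library size after TMM, and on that scale a count of 3, the most that a count of 0 allows, was worth 0.0717 to 0.0876. Intervals and limits cover counting error only. All 5 T cell markers and all 3 markers of regulatory T cells had over 10 counts in every library. The T cell markers summed to 2144 and 2025 CPM with Mock against 2454 and 2506 CPM with FeSO4, and none of the 5 overlapped between the groups, where 39.7% of tested genes at 50 CPM or more had both FeSO4 libraries above both Mock libraries. Cd3g differed the most (368 and 349 against 505 and 512 CPM). Foxp3, the defining factor of regulatory T cells, was at 587 and 693 CPM in the Mock libraries and at 376 and 472 CPM in the FeSO4 libraries, without overlap. The other markers on that list overlapped between the groups, with Il2ra at 1395 and 1586 against 1481 and 1550 CPM and Ctla4 at 136 and 147 against 138 and 179 CPM. Summed myeloid markers were 6.24 CPM in Mock replicate 1 against 1.84 to 2.49 CPM elsewhere, and Lyz2 accounted for 164 of the 253 counts in that library. Of the B cell markers, Ms4a1 had 1 count in Mock replicate 1 and 0 elsewhere, while Cd79a had 69 to 107 counts and Cd79b 12 to 29 counts in a library. Of the NK cell markers, Ncr1 and Klrb1c were at 0 in every library, and Klrd1 was at 0.641 and 1.1 CPM in the Mock libraries against 2.25 and 4.46 CPM in the FeSO4 libraries. The erythroid gene Hba-a1 was at 24.5 and 19.6 CPM with Mock against 37.5 and 32.5 CPM with FeSO4. The CD8 T cell markers summed to 9.81 and 9.04 CPM with Mock against 9.95 and 11 CPM with FeSO4. Cd8b1 was at 7.49 and 8.39 against 9.22 and 9.75 CPM, without overlap, whereas Cd8a overlapped between the groups. The part of Foxp3, of the T cell markers and of these other cells in the results below was not tested. Without Mock replicate 1, the same 5 of the 10 heat shock genes were called.

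The comparison asks which transcripts differ between iTreg cultures given FeSO4 and those given Mock. Of the 10 heat shock genes, 5 were higher in FeSO4 by small amounts, and the inducible HSP70 genes Hspa1a and Hspa1b had few reads in either group. Hspa8, Hsp90aa1, Hsp90ab1, Hspd1 and Hspe1 passed an adjusted p of 0.05, all upwards and by 1.18- to 1.27-fold. Hsf1, Hsph1, Dnajb1, Hspa1a and Hspa1b did not pass. Thus 5 of 10 heat shock genes were called higher, where 10.6% of all tested genes were, and 19.5% were called in either direction (edgeR's quasi-likelihood test with Benjamini-Hochberg adjustment over all genes). The 10 genes were chosen with earlier results of these data known, so these shares describe them and are no independent test. Expression level matters for such a share. Of tested genes whose mean reached 50 CPM (a level picked once the values were known), 18.9% were called higher, as were 5 of the 8 heat shock genes at or above it. Downward calls numbered 0 of 10 with edgeR and limma-voom, 0 of 9 with DESeq2 (which gave Hspa1a no adjusted p), and 0 of 10 at an unadjusted p under 0.05 in edgeR. Of all tested genes, 8.89% were called lower by edgeR after adjustment. The median log2 fold change of the 10 genes was 0.27, and that of all tested genes was -0.00045.

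**Figure D1:**
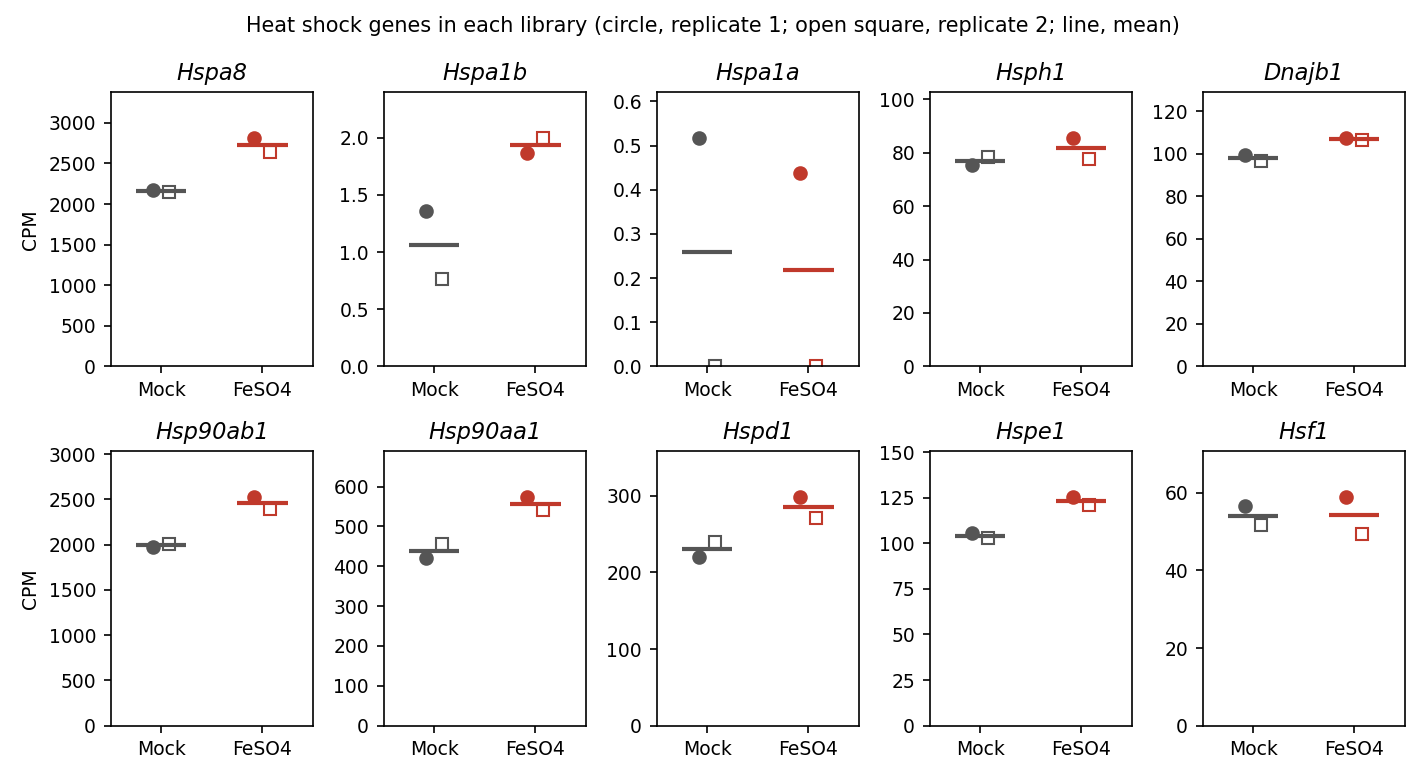
Level of each heat shock gene in CPM on an axis from 0, in Mock (gray) and FeSO4 (red); filled circles are replicate 1, open squares replicate 2 and lines the group means. Hspa8 stands at 2150 to 2173 CPM in Mock and 2643 to 2817 CPM in FeSO4, while Hspa1a and Hspa1b stay at or under 2 CPM throughout.

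The HSP70 genes of the cytosol are taken first. Hspa8 (ENSMUSG00000015656, chr9:40801276-40805202, GRCm38.p6) encodes HSC70, the constitutive HSP70, which also uncoats clathrin vesicles and serves chaperone-mediated autophagy. Mock replicates 1 and 2 had 2173 and 2150 CPM, and FeSO4 replicates 1 and 2 had 2817 and 2643 CPM. The groups did not overlap, and the Mock libraries lay closer together than the FeSO4 libraries. Its means were 2161 ± 16.5 and 2730 ± 123 CPM (SD, n = 2 each), which is 1.26-fold and 0.34 ± 0.05 on the log2 scale (SE, edgeR adjusted p = 0.000506). Exons of the gene overlap those of Snord14c, Snord14d and Snord14e in the annotation (GENCODE M1). Hspa8 ranked 15 by mean CPM among the 13732 genes. It kept its call under all 12 alternatives, from 0.27 with library size only to 0.39 without FeSO4 replicate 2.

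The inducible HSP70 genes were near the limit of use. Hspa1b (ENSMUSG00000090877, chr17:34956429-34959238) had 55 and 32 counts in the Mock libraries (1.36 and 0.765 CPM) and 64 and 74 counts in the FeSO4 libraries (1.87 and 2 CPM). Both FeSO4 libraries lay above both Mock libraries, but the Mock pair lay further apart than the FeSO4 pair. The log2 fold change was 0.87 ± 0.40 (SE), with an unadjusted p of 0.0455 and an adjusted p of 0.147 in edgeR. It was 0.52 without Mock replicate 2 and 1.33 without Mock replicate 1. Hspa1a (ENSMUSG00000091971, chr17:34969359-34972156) had 21 counts in Mock replicate 1, 15 in FeSO4 replicate 1 and 0 in replicate 2 of both groups. Its counts therefore followed the replicate number and not the treatment, and these counts are too few to show a difference (-0.26 ± 1.24 on the log2 scale, SE, edgeR adjusted p = 0.919). A count of 0 allowed at most 0.0717 CPM in Mock replicate 2 and 0.081 CPM in FeSO4 replicate 2.

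These rows are uncertain for a further reason. The coding sequences of Hspa1a and Hspa1b are 99.58% identical, and 61% of the 50-base windows of the Hspa1a transcript and 62.3% of those of Hspa1b occur elsewhere in the mouse genome (NCBIM37), in the partner gene among other places. Reads with more than 1 alignment were set apart from the gene rows. The exons of Hspa1a also overlap those of Gm20481. With the rows summed before the fit, the pair had 76, 32, 79 and 74 counts in Mock 1, Mock 2, FeSO4 1 and FeSO4 2, and a log2 fold change of 0.71 ± 0.41 (SE, edgeR adjusted p = 0.258).

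The partners of HSP70 moved little. Dnajb1 (ENSMUSG00000005483, chr8:83608175-83612653), the J-domain protein that hands substrates to HSP70 and helps to keep HSF1 silent, had 99.4 and 96.7 CPM with Mock against 108 and 107 CPM with FeSO4. The groups did not overlap, yet the difference was small (log2 fold change 0.13 ± 0.07, SE) and missed the threshold (edgeR adjusted p = 0.221). Groups without overlap are common here, since 30.1% of all tested genes had both FeSO4 libraries above both Mock libraries, as had 7 of the 10 heat shock genes. With a mean of 50 CPM or more the shares were 39.7% of all tested genes and 6 of 8 heat shock genes. For 29.4% of all tested genes both FeSO4 libraries lay below both Mock libraries, as for 0 of the 10. Hsph1 (ENSMUSG00000029657, chr5:149616843-149636498), the HSP110 that recharges HSP70 with ATP, had 75.3 and 78.6 CPM with Mock against 85.6 and 77.6 CPM with FeSO4. FeSO4 replicate 2 lay between the Mock libraries, and the log2 fold change was 0.09 ± 0.08 (SE, edgeR adjusted p = 0.488).

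Both cytosolic HSP90 genes were higher in FeSO4. Hsp90ab1 (ENSMUSG00000023944, chr17:45567778-45573261) encodes HSP90β, the constitutive form. Its Mock libraries had 1978 and 2007 CPM and its FeSO4 libraries 2527 and 2397 CPM, again with the groups apart. The log2 fold change was 0.31 ± 0.05 (SE, edgeR adjusted p = 0.00103), from means of 1992 ± 19.9 and 2462 ± 91.4 CPM (SD, n = 2 each). Hsp90aa1 (ENSMUSG00000021270, chr12:110691036-110696395) encodes HSP90α, the more stress-responsive form. Its Mock libraries had 421 and 455 CPM and its FeSO4 libraries 574 and 540 CPM, without overlap. The log2 fold change was 0.35 ± 0.06 (SE, edgeR adjusted p = 0.00153), within the error of that of Hsp90ab1. Both genes kept their calls under all 12 alternatives.

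The mitochondrial chaperonin genes rose together. Hspd1 (ENSMUSG00000025980, chr1:55077833-55088243), the barrel subunit HSP60, had 220 and 240 CPM with Mock against 298 and 271 CPM with FeSO4. The groups were apart, with FeSO4 replicate 1 the highest library (log2 fold change 0.31 ± 0.07, SE, edgeR adjusted p = 0.00565). Hspe1 (ENSMUSG00000073676, chr1:55088148-55091317), the lid subunit HSP10, had 105 and 103 CPM with Mock against 125 and 121 CPM with FeSO4. The libraries of a group differed by far less than the groups did (log2 fold change 0.24 ± 0.07, SE, edgeR adjusted p = 0.0197). These are the genes that share the run of 4 units printed above, and their exons overlap in the annotation (GENCODE M1), where a read can belong to either. These calls were lost in some fits without 1 library, though the direction held. A fit without a library leaves 1 sample in its group, which is assumed to vary like the other group, and this holds for every such value here. Without FeSO4 replicate 1, Hspd1 and Hspe1 both lost their calls, at log2 fold changes of 0.24 and 0.22. Hspe1 also lost its call without Mock replicate 2 (0.23) and without FeSO4 replicate 2 (0.27). With library size only it was at 0.18 and was not called (edgeR adjusted p = 0.0732).

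Hsf1 (ENSMUSG00000022556, chr15:76477362-76501155), which encodes the regulator itself, did not separate the groups. Its Mock libraries had 56.5 and 51.6 CPM and its FeSO4 libraries 58.9 and 49.4 CPM, so the highest and the lowest library were both FeSO4 libraries. The log2 fold change was 0.0014 ± 0.095 (SE, edgeR adjusted p = 0.995), and its sign changed with the scaling. HSF1 is known to be controlled mainly by trimer formation and phosphorylation, which transcript levels do not measure.

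**Figure D2:**
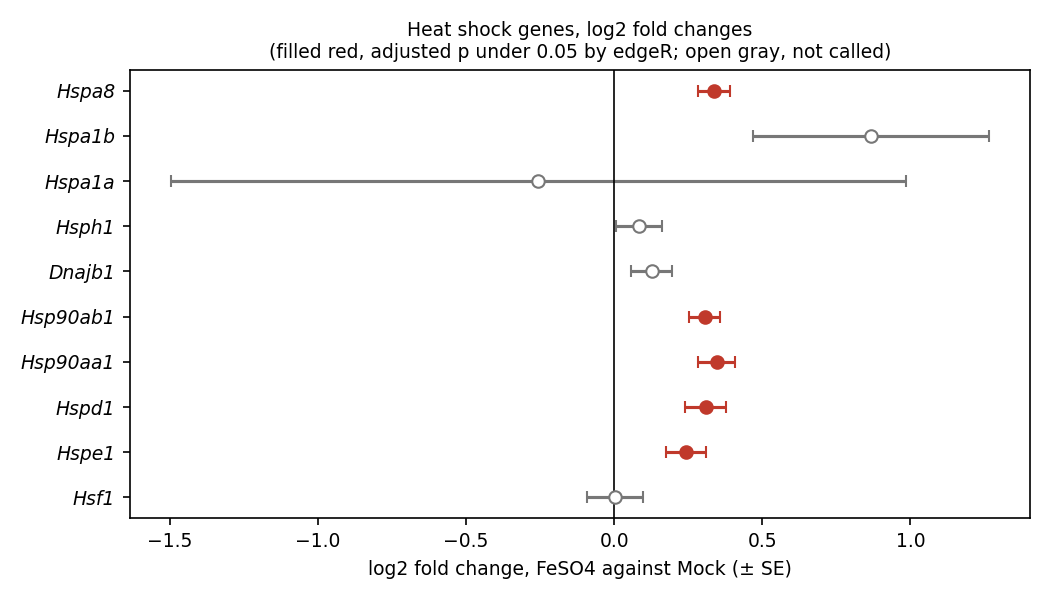
Log2 fold change of each heat shock gene, FeSO4 against Mock, with its standard error; filled red points have an adjusted p under 0.05 in edgeR and open gray points do not. The called genes lie between 0.24 and 0.35, and Hspa1a and Hspa1b have the widest errors, 1.24 and 0.40.

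The study called genes differently, at a p under 0.05 before adjustment and a change of 0.5 or more on the log2 scale, with DESeq2. By that rule on the p of DESeq2, 0 of the 9 heat shock genes with a value were called, Hspa1b having an unadjusted p of 0.074. On the p of edgeR, Hspa1b alone was called, upwards, and 4.47% of all tested genes were called higher by that rule. It called 0 of the 10 lower and 5.58% of all tested genes. The edgeR call of Hspa1b was lost with the upper quartile (unadjusted p of 0.0517), with library size only (0.0622), and without Mock replicate 2 (0.276), FeSO4 replicate 1 (0.094) or FeSO4 replicate 2 (0.142). Without FeSO4 replicate 1, Hspa1a passed that rule downwards (unadjusted p of 0.0488), with 0 counts in the remaining FeSO4 library. The 5 genes called after adjustment all changed by less than 0.5.

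To compare levels between genes, CPM was divided by the length of the longest coding transcript (RPKM). Mean RPKM over the 4 libraries fell in the order Hspa8 (1022), Hsp90ab1 (884), Hsp90aa1 (152), Hspe1 (147), Hspd1 (106), Dnajb1 (45.3), Hsf1 (25.8), Hsph1 (20.8), Hspa1b (0.534) and Hspa1a (0.0816). The library ranges of Hspa8 and Hsp90ab1 overlapped, as did those of Hsp90aa1 and Hspe1, and the other neighbors were apart. Hsp90aa1 and Hspe1 changed places between the groups, with means of 134 and 135 in Mock against 170 and 159 in FeSO4. The order also depends on the gene model. With the union of all exons as the length, the ratio of Hspa8 to Hsp90ab1 went from 1.15 to 0.791, and Hspd1 (97.5) came before Hspe1 (77.1). Levels also depend on copies in the genome. Of the 50-base windows of the transcript, 75.7% in Hspa8, 73.1% in Hsp90aa1, 58.5% in Hspd1 and 46.5% in Hspe1 had an exact copy elsewhere, against 8.3% in Hsp90ab1 and 0.768% in Dnajb1. For Hsf1 and Hsph1 the share was 0%. The read length was not given in the sources used here, so the share of reads lost to such copies is unknown.

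Ratios within a library set levels in the same sample against each other. On the RPKM scale, Hsp90ab1 exceeded Hsp90aa1 by 6.12- and 5.74-fold in Mock and by 5.73- and 5.78-fold in FeSO4, so the balance of the HSP90 forms overlapped between groups. The ratio of Hspd1 to Hspe1 was 0.668 and 0.745 in Mock and 0.76 and 0.716 in FeSO4, again with overlap. The ratio of Hspa8 to its partner Dnajb1 was 20.7 and 21 in Mock and 24.8 and 23.4 in FeSO4, without overlap. That of Hspa8 to Hsp90ab1 was 1.156 and 1.128 in Mock and 1.174 and 1.160 in FeSO4, without overlap but by a small margin. None of these ratios was tested, and ratios of other gene pairs were not computed as a background. Among single tested genes, 30.1% had both FeSO4 libraries above both Mock libraries and 29.4% had both below.

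Together the 10 genes took 0.524% (95% Wilson interval 0.522 to 0.526) and 0.53% (0.528 to 0.533) of gene reads in Mock replicates 1 and 2, and 0.642% (0.64 to 0.645) and 0.609% (0.606 to 0.611) in FeSO4. The group means differed by 0.0985 percentage points. The exact two-sided permutation test gave p = 0.333, the smallest that 2 against 2 libraries allow. Hspa8 and Hsp90ab1 alone made up 80.2 to 81.2% of these reads in each library, so the share follows that pair.

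**Figure D3:**
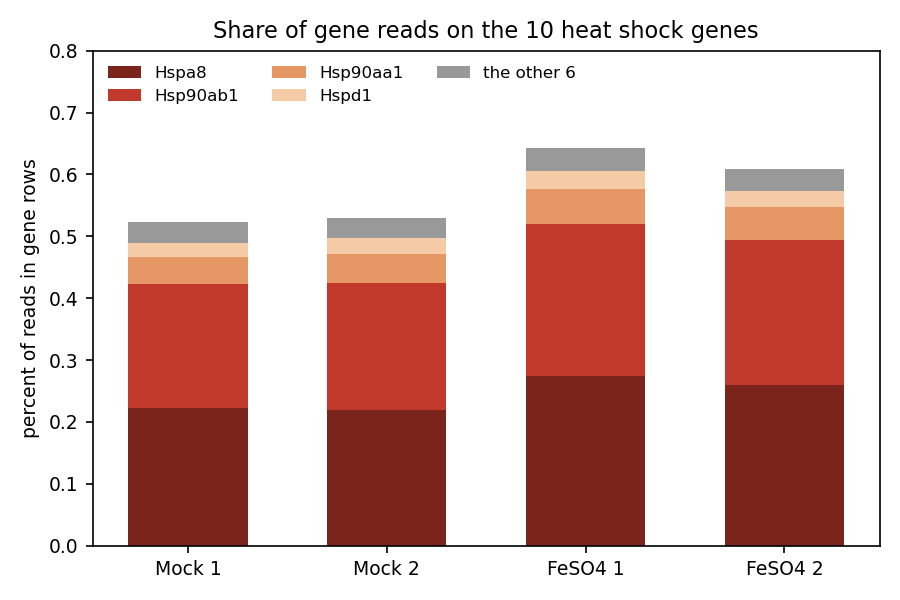
Share of all gene reads on the 10 heat shock genes in each library, in percent, stacked by gene. The bars reach 0.524 and 0.53% in Mock and 0.642 and 0.609% in FeSO4, and Hspa8 and Hsp90ab1 fill most of each bar.

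The wider chaperone network was read from lists of genes by role, given by their counts beside the background of 10.6% called higher, or 18.9% at a mean of 50 CPM or more. The background for lower was 8.89%, or 12% at that level. No list was tested against the other genes or against another list. HSP90 cochaperones deliver clients or tune the ATP cycle of HSP90. Of 13 tested, 6 were higher and the other 7 were not called, with a median log2 fold change of 0.20. All 6 were among the 11 with a mean of 50 CPM or more. Ptges3 (p23), which stabilizes the closed form of HSP90, had 149 and 139 CPM with Mock against 192 and 190 CPM with FeSO4 (log2 fold change 0.40 ± 0.07, SE, edgeR adjusted p = 0.000598). Stip1 (HOP), which links HSP70 to HSP90, changed by 0.31, Sugt1 by 0.32 and Fkbp4 by 0.28 on the log2 scale, each with an adjusted p under 0.05. The number called fell to 3 without FeSO4 replicate 1. It was 4 without Mock replicate 1, without Mock replicate 2 and with library size only.

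The cytosolic chaperonin TRiC, which folds actin and tubulin, and prefoldin, which brings it those clients, were mostly higher by small amounts. Of 9 TRiC genes, 7 were higher (median 0.21), all among the 8 with a mean of 50 CPM or more. They included Tcp1 (0.29), Cct6a (0.26), Cct8 (0.25) and Cct2 (0.20). The exceptions in edgeR were Cct5, at an adjusted p of 0.093, and the weakly expressed Cct6b. None of these calls held without FeSO4 replicate 1, and 3 remained with library size only and without Mock replicate 2, and 4 without Mock replicate 1 and with the upper quartile. Of 6 prefoldin genes, 4 were higher (median 0.27), and 3 of these were among the 4 at 50 CPM or more. They were Pfdn4 (0.60), Vbp1 (0.30), Pfdn1 (0.28) and Pfdn6 (0.26). Pfdn4 was 0.40 without Mock replicate 1 and 0.83 without Mock replicate 2, and Vbp1 was 0.20 and 0.41 in those fits. That number fell to 1 without Mock replicate 1, without FeSO4 replicate 2 and with library size only, and to 2 without FeSO4 replicate 1.

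Other parts of the HSP70 system were read in the same way. Of 9 J-domain genes of the cytosol and nucleus, 3 were higher, namely Dnajc2, Dnajb6 and Dnaja2, by 0.20 to 0.22 on the log2 scale, all among the 5 at 50 CPM or more, and Dnajb2 (0.32, adjusted p = 0.0911) was not called. The number was 0 without Mock replicate 1, without FeSO4 replicate 2 and with library size only, 1 without Mock replicate 2 and with the upper quartile, and 2 without FeSO4 replicate 1. Of 8 nucleotide exchange factors and HSP70 partners, Hspbp1 (0.30) and St13 (0.19) were higher, both among the 3 at 50 CPM or more, while Bag2 (0.65, adjusted p = 0.0636) and Bag1 (0.16, adjusted p = 0.0938) were not called. The number was 0 without Mock replicate 2, without FeSO4 replicate 1 and with library size only, and 1 without either of the other libraries. Bag3, which is strongly heat-induced in many cells, had a log2 fold change of 0.07 ± 0.23 (SE, edgeR adjusted p = 0.874). Of 7 further HSP70 and HSP110 genes, 0 were called by edgeR, DESeq2 and limma-voom, and only Hspa4 (0.17) had an unadjusted p under 0.05 (0.0141). With the replicate number as a block, Hspa4 was called (adjusted p = 0.0357). Hspa4l was at -0.17, Hspa2 at -0.35 and Hspa14 at 0.07. In the mitochondrial list of chaperones and proteases, 2 of 17 genes (11.8%) were higher, a share near the background of 10.6%, and 0 of the 7 at 50 CPM or more were. These were Dnajc15 (0.39) and Dnajc19 (0.32), J-domain proteins of protein import. Neither was called without Mock replicate 2 or without FeSO4 replicate 1, and 1 of the 17 was with library size only. Yme1l1 and Afg3l2, both at 0.18, were not called. Hspa9, the mitochondrial HSP70 that works with HSP60, had a log2 fold change of 0.16 ± 0.07 (SE, edgeR adjusted p = 0.118).

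Genes known for strong induction by heat were also examined. Of 10 small heat shock genes, 7 had too few counts to test. Hspb1 (HSP25), a strongly heat-induced gene, had 15 and 1 counts with Mock against 5 and 7 with FeSO4, and Cryab had 3 in Mock replicate 1 and 0 elsewhere. Hspb11 (0.46, edgeR adjusted p = 0.0451) carries the family name but encodes a subunit of intraflagellar transport. Its call was lost with DESeq2 (adjusted p = 0.0691). In edgeR it was lost with the upper quartile (adjusted p = 0.0567), library size only (0.0809) and no filter on low counts (0.0531). The call was also lost without any 1 of the libraries. Hspb6 (-0.013) and Hspb9 (-0.26) were not called. Of 14 tested HSF1 targets outside the 10 genes, 4 (28.6%) were higher, among them Stip1, Tcp1 and Fkbp4, all 4 being among the 9 at 50 CPM or more, and 2 were lower, namely Ier5 (-0.24) and Serpinh1. Ier5 lost its call without FeSO4 replicate 2 (-0.19, adjusted p = 0.162). The list's median was 0.11, and 2 were higher without FeSO4 replicate 1. Serpinh1, the collagen chaperone HSP47, was counted 45 times in the first Mock library, 15 times in the other and 0 times in each FeSO4 library, which makes it at least 8.71-fold lower against a floor of 3 counts per library. The bound was 4.25-fold without Mock replicate 1, the library with the most Lyz2 counts, and 13.2-fold without Mock replicate 2. DESeq2 gave it no adjusted p. Of 7 tested genes of the HSF family and its regulators, 0 were higher in edgeR, DESeq2 and limma-voom, and 2 were lower, Ier5 and Ep300. Both lower genes were among the 4 at 50 CPM or more, and the list median was -0.044. At an unadjusted p under 0.05 in edgeR, 0 of the 7 were higher, where 2321 of all 13732 tested genes were. Ep300, an acetyltransferase, was at -0.36 (edgeR adjusted p = 0.00419), while the related factor Hsf2 was not called (0.22 ± 0.14, SE), nor was Hsbp1 (0.14 ± 0.09, SE). Without FeSO4 replicate 1, Hsf2 was called higher (0.43, adjusted p = 0.0215), and without FeSO4 replicate 2 it was at -0.033.

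Immediate early genes, which respond to the handling of cells within minutes, were set beside these. Of 8, Ier2 (-0.47), Jun (-0.37) and Junb (-0.19) were lower, and Atf3 was higher, with 24 and 27 counts with Mock against 134 and 90 with FeSO4. With the replicate number as a block, 3 were higher and 3 lower. The list was not stable when a library was left out. Its median log2 fold change was -0.18 in the main fit, 0.14 without Mock replicate 2 and -0.27 without Mock replicate 1. Jun lost its call with DESeq2 (adjusted p = 0.341), and Jun and Junb lost theirs without Mock replicate 2 and without FeSO4 replicate 1. The part of handling in the heat shock results was not tested.

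**Figure D4:**
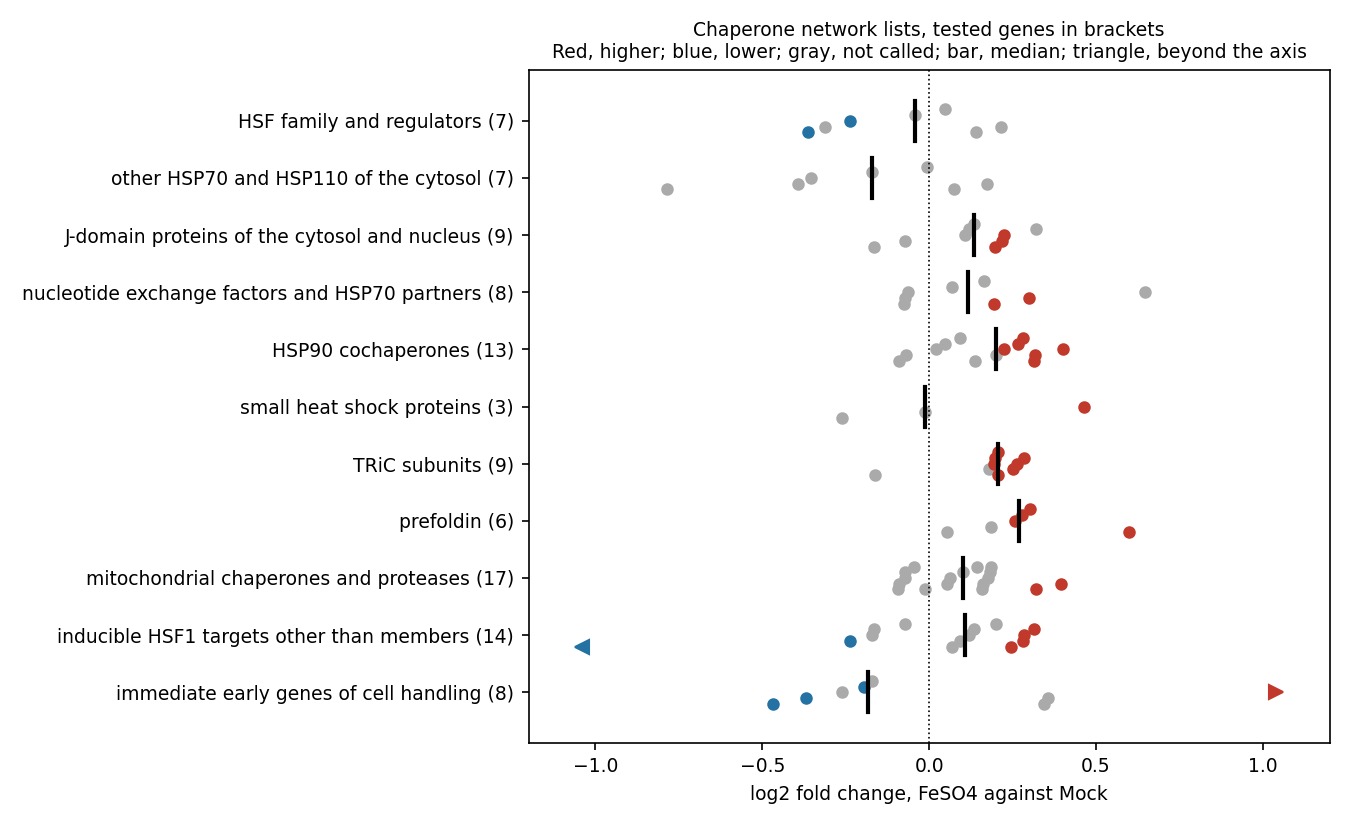
Log2 fold changes of the tested genes of each list, FeSO4 against Mock; red points are higher and blue points lower at an adjusted p under 0.05 in edgeR, gray points are not called, and bars are medians. TRiC, prefoldin and the HSP90 cochaperones have medians of 0.21, 0.27 and 0.20, whereas Serpinh1 and Atf3 lie beyond the axis.

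**Figure D5:**
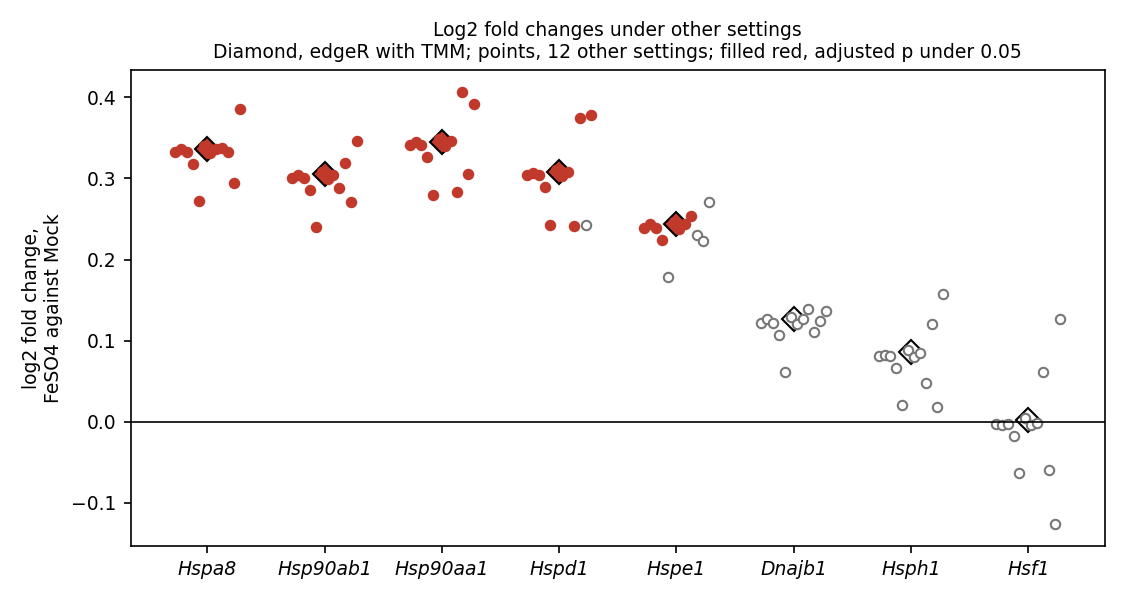
Log2 fold change of 8 heat shock genes by edgeR with TMM (diamonds) and under 12 alternatives (points); filled red marks an adjusted p under 0.05. Hspa8, Hsp90ab1 and Hsp90aa1 are filled throughout, Hspd1 is open once and Hspe1 in 4 settings, and Hsf1 lies on both sides of 0.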

How the data were processed

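The authors deposited a table of raw counts, with a row for each Ensembl gene and a column for each library, not normalized. The submitters' processing notes name Trim Galore 0.6.7, STAR 2.7.9a, featureCounts and mm10, whereas the methods name mm9, STAR and DESeq, and a legend names DESeq2. The last 5 rows, which hold reads without a gene, carry names that HTSeq writes. Strand setting, annotation and read length were not given in the sources used here. Those rows entered neither library sizes nor tests (reads with more than 1 alignment were 4.27 to 4.62% of a library, ambiguous reads 3.78 to 3.91%). Symbols were matched by ID, with synonyms from RefSeq, for 32799 of 47729 rows. The table held 0 columns of other samples.

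Groups were compared with edgeR 4.0.16 under R 4.3.3 (filterByExpr with the group, TMM, quasi-likelihood F test, Benjamini-Hochberg adjustment over 13732 genes). Genes at an adjusted p under 0.05 were called. The SE was taken from the F statistic (the fold change over its root). RPKM and exact copies used GENCODE M1 transcripts and the NCBIM37 genome, and positions are those of RefSeq (GRCm38.p6). Alternatives were DESeq2 1.42.0, limma-voom (limma 3.58.1), a blocked fit by replicate number, other filters and scalings, and each library left out. The fit was tested on simulated data. The 10 genes and the lists were chosen with earlier results of these data known. All 10 are named, and of each list the genes of smallest p (up to 4). Cct5, Cct6b, BAG3, Hspa9, Hspb1 and Cryab were named after their values were seen. No source says that the libraries came from different animals, so p-values measure the spread between these libraries. The methods name pairs from separate experiments but do not say that the replicate number marks the experiment. The main fit therefore held no block, and its error includes any difference between the experiments.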

Additional observations from a re-analysis of the deposited data

Results flagged for a closer look

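Of the 5 kinds of read outside the gene rows, 2 took a larger share in each FeSO4 library than in either Mock library. Reads with more than 1 alignment made up 4.42 and 4.27% of the Mock libraries and 4.6 and 4.62% of the FeSO4 libraries, a difference of 0.264 percentage points. They bear on the heat shock genes because Hspa1a, Hspa1b, Hspa8, Hsp90aa1, Hspd1 and Hspe1 have copies elsewhere in the genome, and which genes these reads came from was not tested. Low-quality alignments were 0.802 and 0.929% in Mock and 0.978 and 0.988% in FeSO4, a difference of 0.118 points. Reads without a feature went the other way, at 5.31 and 6.03% in Mock and 4.36 and 5.21% in FeSO4. With 2 libraries a group, no single library could be tested as an outlier.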

How the results depend on the processing

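The 5 called genes kept their direction under all alternatives, and 4 of 5 remained called with library size only, where Hspe1 did not. Leaving out a library, which leaves 1 sample in its group and takes the spread from the other group, gave 3 to 5 called heat shock genes, 927 to 1159 higher and 799 to 1030 lower genes, and differences in the share of reads of 0.0819 to 0.115 points. Without Hspa8 that difference was 0.0527 points. With library size only, 939 genes were higher, and higher genes made up 34.9% of calls against 54.4%. At an unadjusted p under 0.05 with a change of at least 0.5, 614 genes were higher, 766 were lower and 1 heat shock gene was called, or 0 on the p of DESeq2 (an alternative added after seeing the data). Hsf1 was negative with DESeq2 (-0.0026), limma-voom (-0.0043), the size factors of DESeq2 (-0.0027), the upper quartile (-0.018), library size only (-0.064), at least 10 counts in every library (-0.0042) and the replicate block (-0.0018). With a library left out, Hsf1 ranged from -0.13 to 0.13, Hspa1a from -6.38 to 6.04, Hspb6 from -0.20 to 0.20, Hspb9 from -0.63 to 0.099 and Hsf2 from -0.033 to 0.43. Hspa1a had no value with at least 10 counts in every library. Hspb6 was 0.0032 with limma-voom, and the summed row of Hspa1a and Hspa1b, mostly reads of Hspa1b, was 0.71. The ratio of Hspa8 to Hsp90ab1 (0.791 with all exons) used a length chosen after seeing the data. For changes of sign the cause was not tested. Of 478 values of the list genes that the naming rule chose, 67 lost the call, 4 gained one (Hspa4 and Yme1l1 with the replicate block, Hsf2 and Dnajb2 without FeSO4 replicate 1) and 6 changed sign. Same-numbered libraries did not deviate together over all tested genes (r = 0.029), though they did at 50 CPM or more (r = 0.32). With the replicate block, 1743 genes were higher and 1467 lower, and the same 5 heat shock genes were called. Higher genes then numbered 8 in TRiC, 7 among cochaperones, 5 among HSF1 targets and 3 among immediate early genes. Low counts limit Hspa1a and Hspa1b.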
